A study of Mus musculus with 19 samples.

Results

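CBFA2T2 peaks that were called inside protein-coding genes in H3.3K27M cells, and that met no peak of H3.3WT cells, numbered 761 of 8272 H3.3K27M peaks. They came from chromatin immunoprecipitation sequencing (ChIP-seq) in NE-4C, a mouse neural stem cell line without p53. The groups compared were NE-4C cells lacking H3f3a, one of the genes that code for the histone variant H3.3, which stably expressed HA-tagged H3.3K27M (lysine 27 replaced by methionine), and the same H3f3a knockout line stably expressing HA-tagged H3.3WT. A line without Cbfa2t2 was made on the H3.3WT background, and its libraries were not analysed here. Of 19 libraries in 3 genotypes, 2 had peak lists, each from 1 immunoprecipitation with a CBFA2T2 antibody against input, so no difference between genotypes could be tested and every value below describes single libraries. The labels name neither separate clones nor a pool of cells. Peak lists hold no expression, so the cell type label could not be checked against its markers.

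The peaks were chosen by 3 measured properties. Each was present in the H3.3K27M list, overlapped no H3.3WT peak by even 1 bp, and had its summit within a RefSeq gene span more than 1 kb from every end of a protein-coding gene. Absence from the H3.3WT list is therefore the selection itself and not a result, and it means only that no H3.3WT peak passed the caller's q threshold there. For scale, 33.7% of all H3.3K27M peaks and 48.3% of the 1574 H3.3K27M peaks inside genes overlapped no H3.3WT peak. The remaining 813 peaks inside genes were shared with the H3.3WT list, and 425 H3.3WT peaks inside genes were unshared in turn. Just within the distance limit lay peaks in Hmg20b at 1007 bp, Gm11837 at 1009 bp and Socs3 at 1036 bp from a gene end, with fold enrichments of 3.42, 4.81 and 3.83. Just outside it lay H3.3K27M-only peaks in Gpsm1 at 1000 bp, Shd at 997 bp and Spast at 993 bp, with folds of 4.05, 4.97 and 3.02.

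CBFA2T2 belongs to the MTG (ETO) family of transcriptional corepressors. These proteins do not bind DNA in a sequence-specific way by themselves but are brought to chromatin by DNA-binding factors, and they recruit histone deacetylases. A peak inside a gene can mark an enhancer, a second promoter of the host gene or the start of an RNA gene nested in it. The K27M substitution, known from diffuse midline glioma, interferes with Polycomb repressive complex PRC2, which methylates lysine 27 of histone H3.

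Of the 15 intragenic peaks with the highest −log10 q, 5 had their summit within 250 bp of an annotated transcription start. The windows below are the 6 start windows whose summits had the highest −log10 q, with 250 bases before and 50 bases after the start. They are shown because the summit of the peak lies within the printed bases. Sequences are from RefSeq (GRCm38.p6, the assembly of mm10), written 5′ to 3′ along the strand of the transcript. Capitals mark, on either strand and with overlapping matches joined, the letters CCGGAA (ETS factors), CCAAT (NF-Y box), GGGCGG (Sp and KLF factors), GCGCATGCG (NRF1 core), TGACGTCA (cyclic AMP response element) and AAGATGGC (YY1 core).
Tor1aip2, chr1:156040611-156040910, plus strand: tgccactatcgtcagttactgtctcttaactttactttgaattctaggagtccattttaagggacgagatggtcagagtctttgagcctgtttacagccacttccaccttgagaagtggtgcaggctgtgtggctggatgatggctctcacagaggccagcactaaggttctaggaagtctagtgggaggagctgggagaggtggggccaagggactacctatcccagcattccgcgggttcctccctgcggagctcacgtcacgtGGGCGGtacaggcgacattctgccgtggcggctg
Aktip, chr8:91133978-91134277, minus strand: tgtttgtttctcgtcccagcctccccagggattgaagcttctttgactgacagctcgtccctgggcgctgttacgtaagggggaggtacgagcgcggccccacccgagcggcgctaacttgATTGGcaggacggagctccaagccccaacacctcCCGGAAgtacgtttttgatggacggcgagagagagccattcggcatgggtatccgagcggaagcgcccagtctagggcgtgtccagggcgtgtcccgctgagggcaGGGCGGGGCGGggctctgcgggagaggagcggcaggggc
Gm13483 (inside Mmadhc), chr2:50296560-50296859, plus strand: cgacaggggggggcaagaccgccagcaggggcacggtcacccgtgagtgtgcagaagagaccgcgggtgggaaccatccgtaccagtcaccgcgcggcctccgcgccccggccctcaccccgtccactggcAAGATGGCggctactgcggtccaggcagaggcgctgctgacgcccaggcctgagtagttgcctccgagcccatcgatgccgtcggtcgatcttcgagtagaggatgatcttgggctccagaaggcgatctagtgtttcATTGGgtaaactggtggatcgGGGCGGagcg
Kifap3, chr1:163779333-163779632, plus strand: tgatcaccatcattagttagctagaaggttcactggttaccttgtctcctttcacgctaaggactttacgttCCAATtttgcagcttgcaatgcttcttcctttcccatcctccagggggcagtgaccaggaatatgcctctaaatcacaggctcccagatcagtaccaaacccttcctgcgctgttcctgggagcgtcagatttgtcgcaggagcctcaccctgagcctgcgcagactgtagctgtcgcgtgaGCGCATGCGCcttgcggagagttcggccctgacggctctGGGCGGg
Adh5, chr3:138442843-138443142, plus strand: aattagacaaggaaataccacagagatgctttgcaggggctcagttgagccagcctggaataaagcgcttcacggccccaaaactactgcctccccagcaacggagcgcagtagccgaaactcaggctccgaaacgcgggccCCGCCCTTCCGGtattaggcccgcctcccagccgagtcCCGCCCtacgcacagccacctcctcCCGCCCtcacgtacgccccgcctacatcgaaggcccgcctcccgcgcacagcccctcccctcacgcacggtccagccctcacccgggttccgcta
Nabp2, chr10:128409801-128410100, minus strand: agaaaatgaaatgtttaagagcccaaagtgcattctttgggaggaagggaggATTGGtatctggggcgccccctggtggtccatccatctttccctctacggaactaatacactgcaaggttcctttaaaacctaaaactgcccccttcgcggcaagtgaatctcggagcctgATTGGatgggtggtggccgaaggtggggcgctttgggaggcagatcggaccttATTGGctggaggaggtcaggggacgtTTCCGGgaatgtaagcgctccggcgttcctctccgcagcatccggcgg
Counted from the 5′ end of the window, the summit lay at base 285 for Tor1aip2, 192 for Aktip, 116 for Gm13483, 214 for Kifap3, 23 for Adh5 and 255 for Nabp2. Tor1aip2 codes for a membrane activator of the torsin ATPase, Aktip for a partner of the kinase AKT, Kifap3 for an adaptor subunit of kinesin-2, Adh5 for a formaldehyde-clearing alcohol dehydrogenase and Nabp2 for a single-stranded DNA binding protein. Gm13483 is a lncRNA whose start lies in Mmadhc, a gene of cobalamin metabolism. The GC content of these windows was 55%, 65%, 66%, 55%, 65% and 55.7% in the order printed. The Adh5 window held 3 GGGCGG matches and the Nabp2 window 3 CCAAT matches.

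How strong the peaks were was read from the values that the authors' peak caller gave each peak, its fold over local background and its −log10 q. The fold and −log10 p of a peak together fit a whole number of reads stacked at the summit, with the number of reads the caller expected there, for 99.6% of peaks in both lists. Tob2, which codes for an antiproliferative protein of the BTG family, held the strongest intragenic peak without an H3.3WT counterpart. It had 46 reads (95% exact Poisson interval 33.7 to 61.4) where 2.31 were expected, a fold of 14.2 and a −log10 q of 39.3. The peak spanned 81855945 to 81856471 on chromosome 15, and lay 2010 bp inside the gene. The nearest H3.3WT peak, at the Tob2 end itself, began 1670 bp away and was shared. At that end the H3.3K27M list had 31 reads and a fold of 5.32, against 24 reads and a fold of 3.92 in the H3.3WT list. Intervals on reads cover counting error only, and reads without molecular identifiers need not be independent molecules.

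Rasa4, a GTPase-activating protein for RAS, held the peak with the most reads, 51 (interval 37.97 to 67.06) against 4.625 expected, at chromosome 5, 136101951 to 136102470. No other peak of either list lay in Rasa4. The Tor1aip2 peak (chromosome 1, 156040696 to 156041110) had 38 reads and a fold of 12.6, with its summit 34 bp after an annotated start. The Aktip peak had 45 reads and a fold of 8.78, and was 59 bp before an internal start of Aktip. That in Mmadhc had 38 reads and a fold of 10.4, 135 bp before the start of Gm13483. Aktip and Mmadhc held no H3.3WT peak, and at the end of Tor1aip2 a shared peak had a fold of 7.51 in the H3.3K27M list, against 9.77 in the H3.3WT list.

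Next by −log10 q came peaks in Cpvl, Atp2b2, Slc6a11, Mbp, Stra6 and Kifap3. Atp2b2, a plasma membrane calcium pump, held peaks of 10.3 fold with 31 reads and 6.99 fold with 16 reads, and no H3.3WT peak. Slc6a11, a transporter of the inhibitory transmitter GABA, held a peak of 8.05 fold with 39 reads. Mbp, the gene for myelin basic protein, held a peak of 11.6 fold with 24 reads. None of these hosts held an H3.3WT peak. Stra6, the receptor that takes up retinol, held a peak of 9.72 fold with 28 reads 64 bp after an internal start. A shared peak elsewhere in Stra6 had a fold of 4.94 in the H3.3K27M list, against 4.61 in the H3.3WT list. Kifap3 held a peak of 11.1 fold with 23 reads, 37 bp before an internal start.

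Cpvl, a serine carboxypeptidase, had the second highest fold, 14.1, from 26 reads where 0.917 were expected. Its only H3.3WT peak, of 5.01 fold and 10 reads, lay elsewhere in the gene. The zinc finger genes Zfp13 and Zfp563 held peaks of 11.5 and 10.8 fold, with 21 and 24 reads. Zfp13 had no H3.3WT peak. Zfp563 shared a peak at its end, where the fold was 8.54 in H3.3K27M cells, against 4.85 in H3.3WT cells. Mypn, a sarcomere protein gene, completed the highest folds with 10.0 from 19 reads. Tpm3, a tropomyosin that coats actin filaments, held a peak of 9.05 fold and 28 reads. Amotl2, an angiomotin family regulator of YAP, held a peak of 8.05 fold and 31 reads. All these folds are ratios within 1 library and carry no replicate error.

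Most of the intragenic H3.3K27M-only peaks were much smaller. Over the 761 peaks the lowest fold was 2.11, the median 4.64 and the highest 14.2, against 2.50, 6.14 and 48.1 over the 813 shared H3.3K27M peaks inside genes. The median −log10 q was 4.96, against 12.2 in shared peaks. The median width was 396 bp, against 567 bp. At the summit the median was 15 reads (quartiles 12 and 19) where 2.31 were expected, against 27 reads (quartiles 20 and 40) where 3.47 were expected at shared peaks. Of the H3.3K27M-only peaks 22 had 30 reads or more (2.89%), while 353 of the shared peaks did (43.4%). The 85 weakest had 9 reads or fewer. Small size was not particular to the H3.3K27M list. The 425 H3.3WT-only peaks inside genes had a median fold of 4.89, a median −log10 q of 4.84 and a median width of 364 bp. Their median was 13 reads where 1.79 were expected. The selection used these same lists, so the differences in strength are given as a description, without a test.

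**Figure D1:**
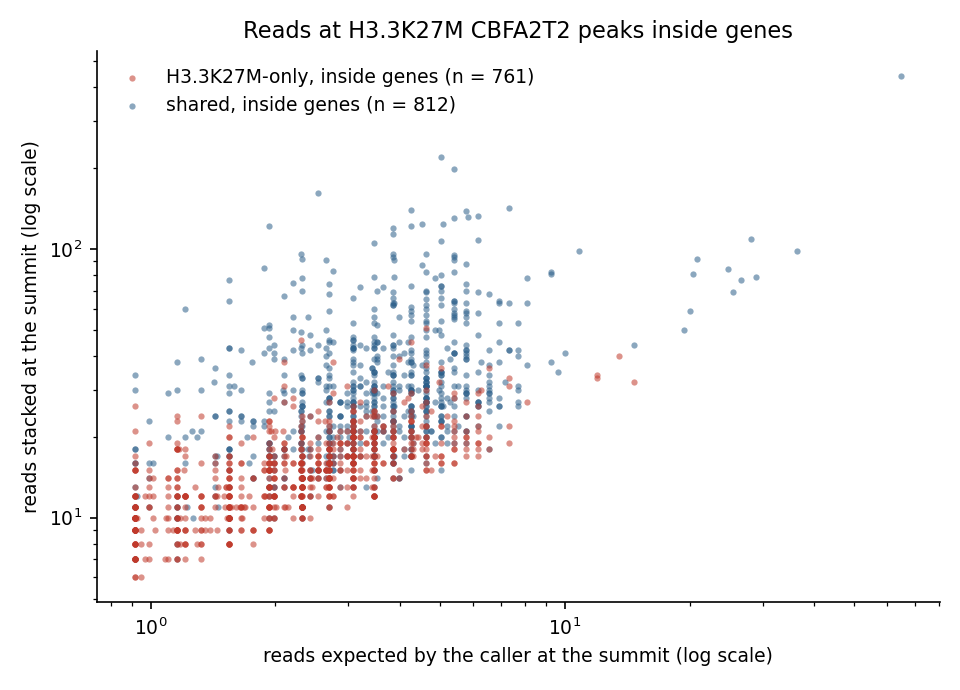
Reads stacked at the summit against the reads expected by the caller, both on log scales, for each H3.3K27M peak inside a gene. Points of the H3.3K27M-only peaks lie mostly along the lower edge, with a median of 15 reads against 27 for shared peaks.

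A handful of the H3.3K27M-only peaks stood on high background. In Adarb2, an RNA-editing enzyme family member, 32 reads were stacked where 14.65 were expected, the lowest fold of all. Zc3h7a had 40 reads where 13.5 were expected, and Mbnl1, a splicing regulator, 33 where 11.95 were expected. In the H3.3WT list a peak with 97 reads and a fold of 5.62 lay 555 bp from the Mbnl1 peak, and it overlapped another H3.3K27M peak. Sntb1 and Gm38523 completed the 5 peaks with more than 8 expected reads. These genes other than Mbnl1 were picked after their values were seen.

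Peaks with few reads were the ones most often without a counterpart, in both lists. Among H3.3K27M peaks inside genes with 6 to 9 reads, 95.5% of 89 were unshared, and among H3.3WT peaks with 6 to 9 reads, 85.2% of 81. With 15 to 19 reads the shares were 65.5% of 377 H3.3K27M peaks (95% Wilson interval 60.6 to 70.1) and 38.2% of 296 H3.3WT peaks (32.8 to 43.8). With 20 to 29 reads they were 34.0% of 400 (29.5 to 38.8) and 11.6% of 276 (8.33 to 15.9). With 30 to 49 reads they were 8.68% of 242 (5.75 to 12.9), and 0 of 159 with an upper bound of 2.36%. From 50 reads, 1 of 133 H3.3K27M peaks, that in Rasa4, and 1 of 84 H3.3WT peaks were unshared. The smallest number of reads that the caller expected at any peak was 0.917 in H3.3K27M and 0.752 in H3.3WT, a ratio of 1.22. Equal read numbers are thus not equal enrichment in both libraries, and the part of this difference in the number of H3.3K27M-only peaks was not tested.

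**Figure D2:**
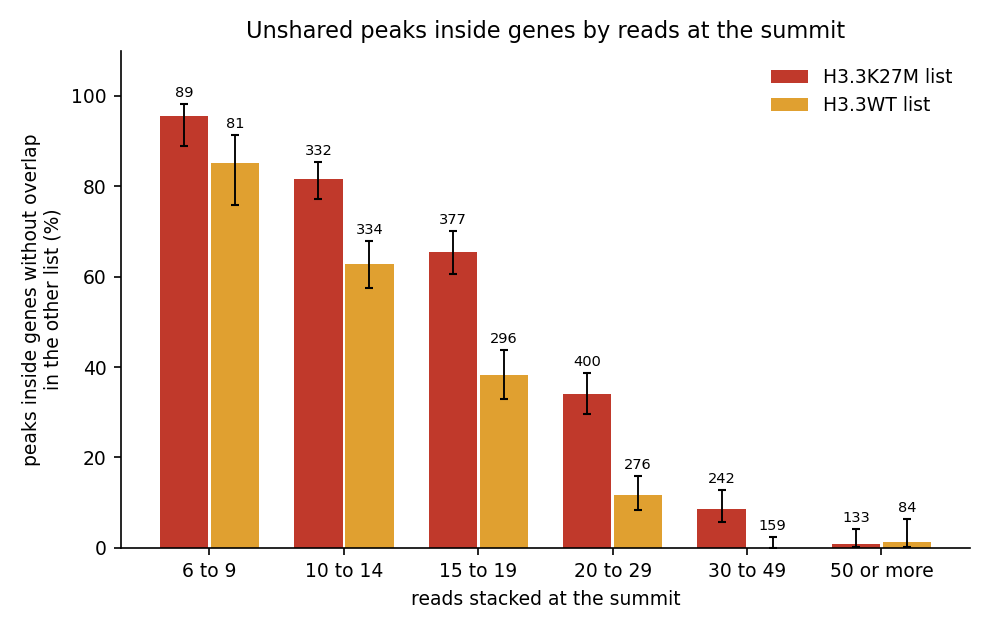
Share of peaks inside genes that overlap no peak of the other list, by reads at the summit, for the H3.3K27M list (left bars) and the H3.3WT list (right bars). Error bars are 95% Wilson intervals and the number of peaks stands above each bar; the share falls from 95.5% to 0.752% in the H3.3K27M list.

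Many of the intragenic peaks lay at a start of transcription that the annotation places inside the host gene. RefSeq start windows covered all chromosomes but 18, and therefore 733 of the 761 peaks. Of these, 149 (20.3%, Wilson interval 17.6 to 23.4) had their summit within 250 bp of a start. In 135 cases the start belonged to the host gene itself and in 14 to a lncRNA. Sequence within 250 bp of a start made up 0.323% of the 957 Mb of gene interiors in which such a peak could lie. The share was 36.2% of 798 shared H3.3K27M peaks inside genes (32.95 to 39.61) and 14.5% of 414 H3.3WT-only peaks inside genes (11.4 to 18.2). Seen from the annotation, 2.55% of 6671 internal starts had an H3.3K27M-only intragenic summit within 250 bp. That was 3.87% of the 3881 starts of protein-coding genes and 0.717% of the 2790 lncRNA starts. Among the 149, the median summit lay 31 bp after the start, with quartiles 54 bp before and 100 bp after it.

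**Figure D3:**
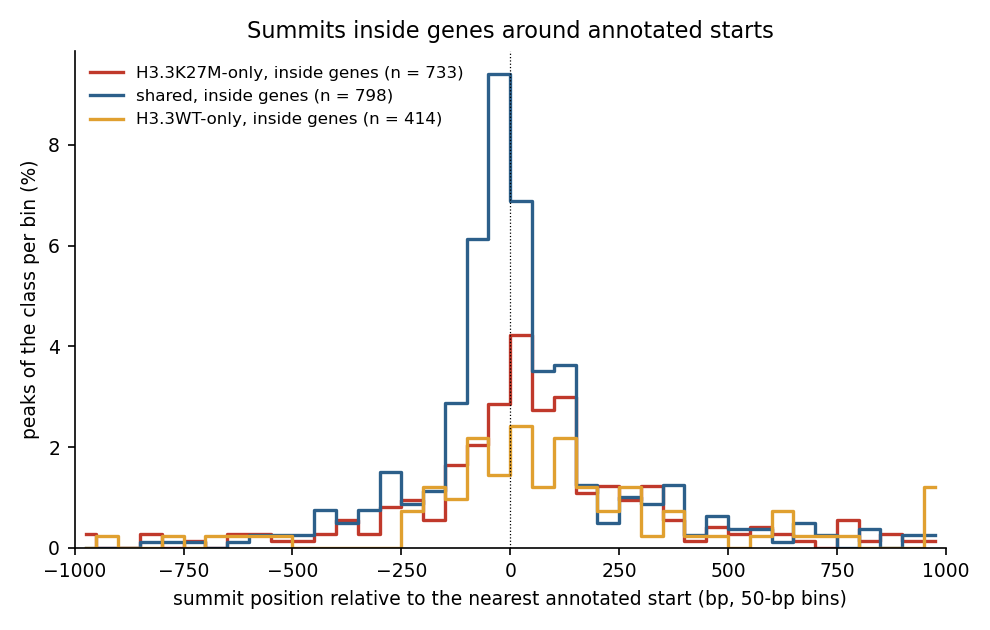
Position of summits relative to the nearest annotated start, as the percentage of peaks of each class per 50-bp bin, negative before the start. All 3 classes crowd around 0 bp, with 20.3% of H3.3K27M-only peaks, 36.2% of shared peaks and 14.5% of H3.3WT-only peaks within 250 bp.

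Peaks at internal starts were somewhat higher in reads than the others but not in fold. The median was 18 reads where 2.87 were expected, against 14 reads where 2.13 were expected at the 584 peaks farther away. The median fold was 4.597 near starts and 4.638 elsewhere. Among named hosts, 5 with a peak at an internal start serve as examples. Dnmt3a, a de novo DNA methyltransferase, had a summit 27 bp before an internal start with 17 reads and a fold of 5.43. Pcgf5, a subunit of Polycomb complex PRC1, had a summit 129 bp after an internal start with 15 reads and a fold of 5.47. Rbpj, the DNA-binding effector of Notch signalling and a known partner of MTG proteins, had a summit 3 bp after an internal start with 17 reads and a fold of 3.98. Bcl2l11, the proapoptotic gene for BIM, had its summit 63 bp after an internal start with 17 reads and a fold of 4.66. Ccnd3, a D-type cyclin, held a peak 151 bp after an internal start with 15 reads and a fold of 4.83, and a stronger peak of 27 reads and 7.57 fold away from any start. The peaks in Rbpj, Pcgf5 and Bcl2l11 were far from the nearest H3.3WT peak, by 806317, 325479 and 295464 bp.

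The start windows that held these summits were rich in CpG dinucleotides. A window holding an H3.3K27M-only intragenic summit was found 90 times, and 69 of these windows (76.7%, interval 66.95 to 84.2) had at least 50% GC and an observed over expected CpG ratio of at least 0.6. The same held for 86.7% of 218 windows with a shared summit inside a gene, 78.4% of 37 windows with an H3.3WT-only summit inside a gene, 84.7% of 495 windows with an H3.3K27M-only summit at a gene end and 45.2% of all 21263 start windows of protein-coding genes. It held for 22.1% of the 3100 internal starts of protein-coding genes with no summit of either list within 1 kb. The median GC content was 65% in windows with H3.3K27M-only intragenic summits, 61.7% in those with shared summits and 52.7% at the internal starts without a peak. It was 67% in windows with H3.3WT-only intragenic summits and 65% in those with H3.3K27M-only summits at gene ends.

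Motif letters in the 90 windows were counted on both strands. GGGCGG was found in 76.7% (66.95 to 84.2), against 64.2% of windows with a shared intragenic summit (57.66 to 70.29). It was found in 75.7% of the 37 windows with an H3.3WT-only intragenic summit (59.9 to 86.6) and 46.2% of all start windows of protein-coding genes. CCGGAA was found in 26.7% (18.6 to 36.6), against 43.6% of the windows with a shared summit (37.2 to 50.2), 24.3% of those with an H3.3WT-only summit (13.4 to 40.1) and 18.7% of all start windows. For both motifs the intervals of the H3.3K27M-only and H3.3WT-only windows overlap. AAGATGGC was found in 2 of the 90 windows (2.22%, 0.612 to 7.745), against 9.17% of windows with a shared summit (6.017 to 13.75) and 3.05% of all start windows. TGACGTCA was found in 1 window (1.11%, 0.196 to 6.03), against 6.42% (3.86 to 10.49) and 2.23%. In windows with an H3.3WT-only summit the shares were 5.41% and 0%. For GGGCGG, AAGATGGC and TGACGTCA the intervals of the H3.3K27M-only and shared windows overlap. CAGCTG, the E-box letters of neuronal bHLH factors, was found in 21.1% (13.95 to 30.63). It was found in 11.5% of windows with a shared summit (7.89 to 16.4), 15.6% of all start windows and 20.03% of the windows of internal starts without a peak. In windows with an H3.3WT-only intragenic summit it was found in 10.81% (4.285 to 24.71). Any E-box, CANNTG, was found in 60%, against 58.7% of windows with a shared summit and 69.0% of all start windows. TGTGGT, the letters of RUNX factors, was found in 5.56% (2.396 to 12.35). It was found in 10.6% of windows with a shared summit (7.134 to 15.33), 13.51% of those with an H3.3WT-only summit (5.913 to 27.98) and 14.97% of all start windows. For CAGCTG and TGTGGT the H3.3K27M-only interval overlaps those of the shared and the H3.3WT-only windows. Letters in a window are a description and not evidence that a factor was bound.

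The 761 peaks lay in 705 host genes, 3.22% of the 21887 protein-coding genes. Host genes were long, with a median length of 68323 bp, against 45882 bp for genes with a shared internal peak and 17169 bp for all protein-coding genes. Of genes over 300 kb, 15.6% of 557 held an H3.3K27M-only internal peak and 10.6% held a shared one. Of genes up to 10 kb, 0.656% and 0.770% did. A longer gene offers more sequence in which such a peak can lie, so shares over gene lists have to be read beside gene length. Of 586 peaks with a single host of known strand, 39.4% (35.5 to 43.4) fell in the fifth of the gene nearest its start, and 10.1% (7.89 to 12.8) in the fifth at its end. For shared peaks these shares were 47.8% and 7.12% of 646.

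**Figure D4:**
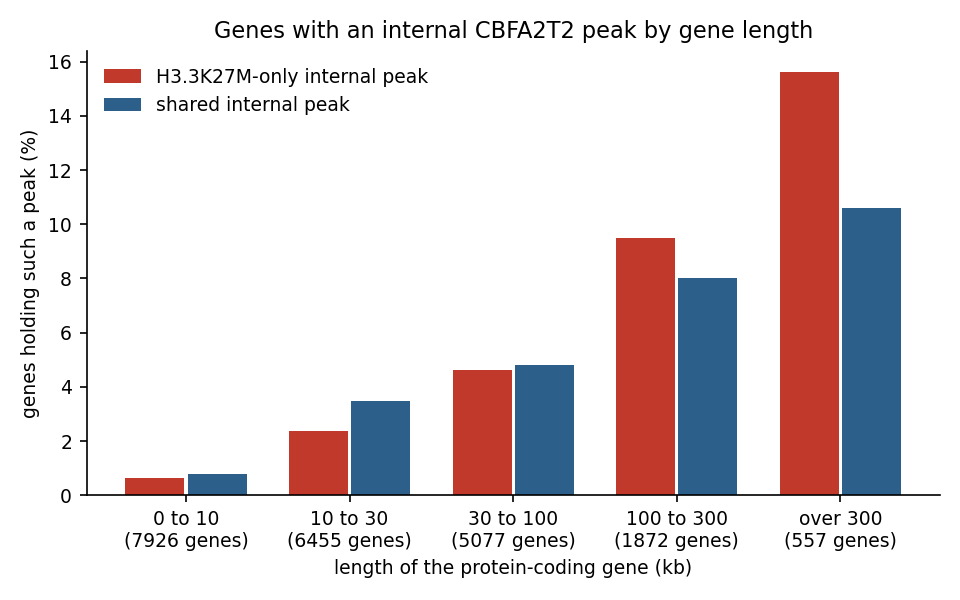
Percentage of protein-coding genes that hold an H3.3K27M-only internal peak (left bars) or a shared internal peak (right bars), by gene length in kb. Of genes over 300 kb, 15.6% hold an H3.3K27M-only peak, against 0.656% of genes up to 10 kb.

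Most hosts, like most genes, held no H3.3WT peak: 33.9% of host genes did (30.5 to 37.5), against 29.2% of all protein-coding genes. The host, widened by 1 kb on both sides, held an H3.3WT peak somewhere for 275 of the 761 peaks (36.1%, interval 32.8 to 39.6). For 428 peaks (56.2%) the host held no peak of either list apart from H3.3K27M-only intragenic peaks. An H3.3WT peak at a gene end was found in 20.1% of host genes (17.4 to 23.3) and 24.8% of all protein-coding genes. A shared internal peak was found in 9.93% of host genes (7.93 to 12.4) and 3.37% of all protein-coding genes. Hosts were longer than most genes, and none of these shares was adjusted for length. Among all protein-coding genes, a shared internal peak was found in 4.81% of those of 30 to 100 kb. It was found in 8.01% of those of 100 to 300 kb. The median gap to the nearest H3.3WT peak was 54513 bp. An H3.3WT summit lay within 5 kb of 11.7% of the peaks and within 50 kb of 47.6%. The most isolated peak, in the protocadherin gene Pcdh9, was 5513739 bp from any H3.3WT peak and rested on 8 reads (3.45 to 15.8).

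At the other extreme, 34 peaks had an H3.3WT peak within 1 kb of their edges. In these 34 pairs the fold was higher in the H3.3K27M peak in 8 and in the H3.3WT peak in 26. Reads were more in the H3.3K27M peak in 15 pairs and in the H3.3WT peak in 18. In 20 pairs the H3.3WT peak overlapped another H3.3K27M peak. In Ubtf, the transcription factor of ribosomal RNA genes, the gap was 68 bp, with 19 reads and 5.03 fold in the H3.3K27M peak, against 12 reads and 4.00 fold in the H3.3WT peak beside it. Summits of that pair were 577 bp apart. In Fasn, the fatty acid synthase gene, a gap of 196 bp separated an H3.3K27M peak of 24 reads and 4.04 fold from an H3.3WT peak of 19 reads and 4.14 fold. In Rara, a retinoic acid receptor gene, the gap was 247 bp, with 17 reads and a fold of 4.405 in the H3.3K27M list, against 13 reads and a fold of 4.199 in the H3.3WT list. In Tmpo, which codes for a nuclear lamina protein, the H3.3K27M peak had 24 reads and 7.54 fold, against 8 reads and 4.499 fold in the H3.3WT peak 384 bp away. By fold, the more frequent order was that of Trmo, with 20 reads and 3.88 fold in the H3.3K27M peak, against 39 reads and 9.33 fold in the H3.3WT peak. Apba3 had the same order, with 24 reads and 7.30 fold against 41 reads and 16.25 fold. In Trmo and Apba3 the H3.3WT peak overlapped another H3.3K27M peak. Tmpo, Trmo and Apba3 were picked after their values were seen.

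In 8 genes the intragenic H3.3K27M-only peaks numbered 3 or more. Zfp608, a zinc finger gene, held 4 of them, with folds of 3.79 to 4.68 and 10 to 14 reads. The zinc finger gene Cxxc5, Dnmt3a, Frmd4a (a FERM domain scaffold), Gse1, Midn (midnolin), Plekhg1 (a guanine nucleotide exchange factor) and Tead1 (the DNA-binding partner of YAP) held 3 each. Tead1, Plekhg1, Frmd4a and Cxxc5 held no H3.3WT peak, where 33.9% of all hosts held one. The peaks in Tead1 had 15, 16 and 11 reads and folds of 5.47, 5.13 and 5.42. Those in Plekhg1 had 17, 20 and 9 reads and folds of 6.03, 4.33 and 4.52. Gse1 also held shared peaks of 10.5 and 12.4 fold in the H3.3K27M list, against 7.54 and 6.015 fold in the H3.3WT list, and an H3.3WT-only peak of 3.60 fold. Midn had its 3 peaks of 3.13, 5.305 and 3.62 fold close around a shared peak, whose fold was 6.035 in the H3.3K27M list, against 6.09 in the H3.3WT list. An H3.3WT-only peak of 3.25 fold and 11 reads lay between a pair of them, 73 and 219 bp away. Across all hosts, 58 of 705 held 2 peaks or more, and 45 peaks lay within 5 kb of another.

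Hosts were next counted over 29 lists of genes, named for pathways and cell functions. Of the 875 listed genes 96 held an H3.3K27M-only internal peak (11.0%) and 90 a shared internal peak (10.3%). Listed genes had a median length of 37585 bp, more than the 17169 bp of all protein-coding genes. The lists were chosen with earlier results of these data known, so each is read beside 11.0% as well as 3.22%. The part of gene length in the 11.0% was not tested. Shares above 20% were reached by neuronal differentiation with 9 of 30, actin cytoskeleton and adhesion with 9 of 35, and axon guidance with 7 of 28. Their median gene lengths were 92922 bp, 81591 bp and 151945 bp. Genes of 30 to 100 kb held such a peak in 4.63% of all cases and those of 100 to 300 kb in 9.51%.

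**Figure D5:**
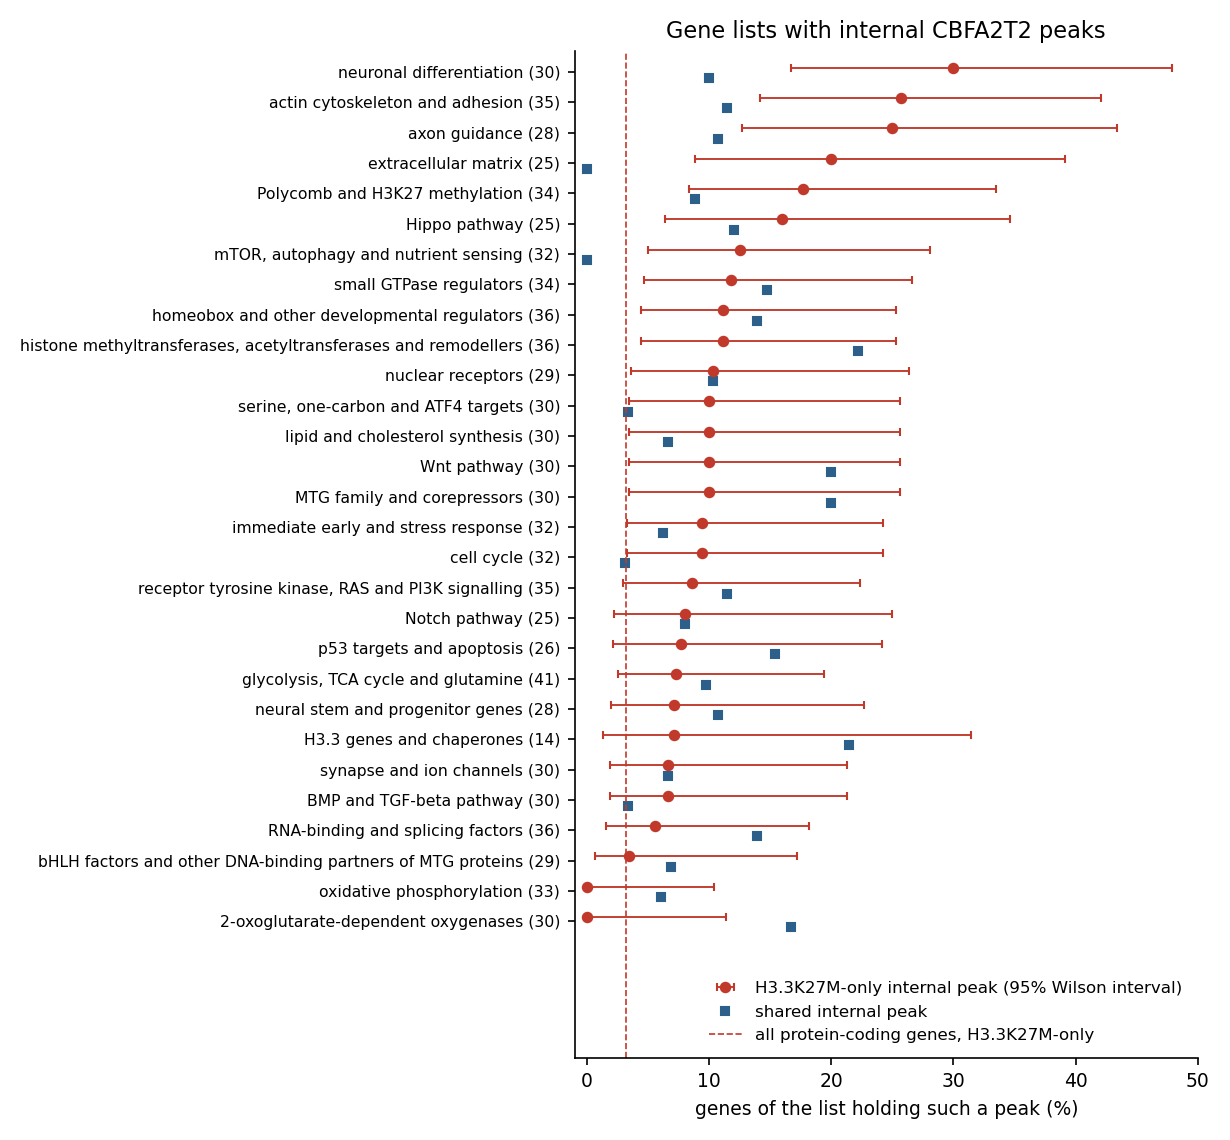
Percentage of each list's genes that hold an H3.3K27M-only internal peak (circles, with 95% Wilson intervals) or a shared internal peak (squares); the number of genes stands in brackets and the dashed line marks the 3.22% of all protein-coding genes. Neuronal differentiation has the highest share, 30%, and 2 lists have none. Over all listed genes the share is 11.0%.

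Hosts on the list of neuronal differentiation were Elavl2, Ebf1, Tubb3, Rbfox2, Rbfox1, Nfib, Tbr1, Nfia and Insm1. Among these 9 hosts, Rbfox1 was alone in holding an H3.3WT peak, where 33.9% of all hosts held one. That count is small and carries no interval, and the difference was not tested. Of the 30 listed genes, 3 held a shared internal peak. Elavl2, a neuronal RNA-binding protein, had 15 reads (8.39 to 24.7) where 0.917 were expected and a fold of 8.35. Ebf1, a transcription factor of early neuronal differentiation, had 21 reads and a fold of 6.64. Tubb3, the tubulin of neurons, had 17 reads and a fold of 6.15, 1535 bp inside the gene. Insm1, a zinc finger repressor of neuroendocrine and neural progenitors, had a further H3.3K27M-only peak at its end with 28 reads and a fold of 6.25, and 14 reads and a fold of 3.67 inside. The splicing regulator Rbfox1 held 2 H3.3K27M-only peaks of 5.74 and 4.70 fold, and a shared peak with a fold of 9.91 in the H3.3K27M list, against 8.56 in the H3.3WT list.

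Axon guidance genes held peaks in receptors as well as ligands, and 3 of the 7 hosts held an H3.3WT peak. The Slit receptor gene Robo1 had 14 reads and a fold of 7.45, and Robo1 also held an H3.3WT-only peak of 10.65 fold and 18 reads. The semaphorin receptor genes Plxnb1 and Plxnb2 had peaks 72 bp after and 15 bp before internal starts, with 22 and 18 reads and folds of 4.96 and 4.53. Among ligands, Slit1 had a fold of 3.92, Sema3a 4.33, Sema4c 3.62 and Efna5 peaks of 5.09 and 5.13. For Efna5 and Sema4c a shared peak was present inside the gene as well, with folds of 6.22 and 3.74 in the H3.3K27M list, against 7.29 and 5.51 in the H3.3WT list.

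On the list of the actin cytoskeleton and adhesion, peaks fell in Actb, Tpm4, Flna, Pxn, Diaph1, Palld, Enah, Actn4 and Tln2, and 4 of these 9 hosts held an H3.3WT peak. Actb, which codes for beta-actin, had a wide peak of 1016 bp with 30 reads (20.2 to 42.8) and a fold of 5.51, while an H3.3WT-only peak at a gene end had 9 reads and a fold of 3.71. Tpm4, another tropomyosin, had 15 reads and a fold of 7.42. Flna, the actin crosslinker filamin A, had 21 reads and a fold of 4.92, with the summit 116 bp after an internal start. Of the 35 listed genes, 4 held a shared internal peak. The formin gene Diaph1 had H3.3K27M-only peaks of 5.51 and 4.699 fold, and at its end a shared peak of 7.025 fold in the H3.3K27M list, against 8.665 in the H3.3WT list. Palld, which codes for the actin-binding palladin, had H3.3K27M-only peaks of 4.78 and 4.48 fold, and its stronger shared peak had a fold of 7.24 in the H3.3K27M list, against 7.998 in the H3.3WT list. The extracellular matrix list, with 5 hosts of 25 genes, had a share of 20% (8.86 to 39.1). None of the 25 held a shared internal peak, where 10.3% of listed genes did, and none of the 5 hosts held an H3.3WT peak, where 33.9% of all hosts did. Such absences were not particular to this list. No gene on the list of mTOR, autophagy and nutrient sensing held a shared internal peak. No host on the cell cycle or Notch pathway list held an H3.3WT peak. The 5 hosts were Timp3, an inhibitor of metalloproteinases nested in Syn3, with 17 reads and a fold of 7.08, Vcan, the proteoglycan versican, with 12 reads and 6.53, Sparc with 15 reads and 5.57, Hspg2 with 15 reads and 4.83, and Col18a1 with 11 reads and 4.10.

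Polycomb genes are of interest because the K27M substitution affects PRC2. Of 34 listed genes, 6 held an H3.3K27M-only internal peak (17.6%, interval 8.35 to 33.5) and 3 a shared one. That interval includes the 11.0% of all listed genes. Jarid2, an accessory subunit of PRC2, had 14 reads and a fold of 6.16 at its internal peak. At its end it held a shared peak of 37 reads and 11.5 fold in the H3.3K27M list, against 23 reads and 9.598 fold in the H3.3WT list. An H3.3WT-only peak of 18 reads and 6.33 fold also lay inside Jarid2. Hosts among PRC1 subunit genes included Pcgf5 and Pcgf2, which code for ring finger subunits, and Cbx7 and Cbx6, whose chromodomains bind methylated lysine 27. Cbx7 had 12 reads and a fold of 5.34 beside a shared internal peak of 6.03 fold in the H3.3K27M list, against 4.34 in the H3.3WT list. Cbx6 had 18 reads and a fold of 3.91. Pcgf2 held peaks of 3.77 and 2.66 fold, and a shared peak at its end had a fold of 8.485 in the H3.3K27M list, against 14.45 in the H3.3WT list. Cbx6 and Pcgf5 held no H3.3WT peak, and 3 of the 6 hosts held one.

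The Hippo pathway list had 4 hosts of 25 genes (16.0%, 6.403 to 34.65), Amotl2, Lats2, Tead1 and Fat1. Lats2, a kinase that inactivates YAP, had 21 reads and a fold of 7.52. The Notch pathway list had 2 hosts of 25 genes (8%, against 11.0% of all listed genes), Rbpj and the ligand gene Jag1, whose peak had 17 reads and a fold of 3.44. Neither held an H3.3WT peak, where 33.9% of all hosts held one, but 2 hosts are too few to read a difference from. Corepressor genes were represented by Hdac4 with 24 reads and 5.80 fold, Ctbp2 with 16 reads and 5.92 fold and Hdac5 with 15 reads and 3.22 fold. These were 3 of 30 listed genes (10.0%, 3.46 to 25.62), against 6 with a shared internal peak. The list of mTOR, autophagy and nutrient sensing had 4 hosts of 32 (12.5%, 4.97 to 28.07) and no shared internal peak, and 3 of the 4 hosts held an H3.3WT peak. Among them Tfeb, a transcription factor of lysosome genes, had 13 reads and 4.78 fold, and Foxo3 14 reads and 3.48 fold. On the list for neural stem cells, 2 of 28 were hosts (7.143%, 1.981 to 22.65), Cdh2 with 10 reads and Msi1 with 11. The intervals of the Hippo, corepressor, mTOR and neural stem cell lists include the 11.0% of all listed genes.

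No H3.3K27M-only internal peak fell in the 30 listed genes of 2-oxoglutarate-dependent oxygenases (upper bound 11.4%), of which 5 held a shared internal peak. Likewise none fell in the 33 genes of oxidative phosphorylation (upper bound 10.4%), whose median length was 10095 bp. Cbfa2t2, Cbfa2t3, Runx1t1, the RUNX genes, Tcf3, Tcf4, Tcf12, the H3.3 genes, Kdm6a, Kdm6b and Ezh2 were hosts of none. The DNA-binding partners of MTG proteins had a single host of 29, Rbpj. Remaining lists had 1 to 4 hosts each, with Wilson intervals reaching below 11.0%. The highest folds there, apart from Ccnd3, were those of Ubn2, a subunit of an H3.3 chaperone complex, with 20 reads and 8.26 fold, Esrrb, an orphan nuclear receptor, with 23 reads and 8.199 fold, and Slc3a2, a subunit of amino acid transporters, with 21 reads and 7.345 fold.

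Besides the host, 69 of the 761 peaks (9.07%, interval 7.23 to 11.3) lay in the span of a non-coding gene or pseudogene, against 8.36% of shared peaks inside genes (6.65 to 10.5). Pseudogenes held 15 of the H3.3K27M-only peaks (1.97%, 1.20 to 3.23), 2 of 813 shared peaks (0.246%, 0.0675 to 0.893) and 3 of 425 H3.3WT-only peaks (0.706%, 0.240 to 2.06). LncRNAs held 53, 60 and 23 peaks of these classes. In the 15 pseudogenes folds ran from 3.54 to 9.28 with a median of 5.63. Pseudogenes of ribosomal proteins made up 5 of the 15, namely Rps2-ps10 in Pde6a with 19 reads and 9.28 fold, Rps16-ps2 in Adgrd1 with 18 reads and 8.81 fold, Rps26-ps1 in Wwp2 with 22 reads and 5.63 fold, Rps12-ps3 in Pdzd8 with 11 reads and 6.26 fold, and Rpl28-ps1 in Zranb3 with 14 reads and 4.53 fold. A processed pseudogene is a near copy of its parent's mRNA, and how reads matching several places were treated is not given in the sources used here, so the position of these peaks is uncertain. Transfer RNA genes held 2 peaks, in Trim2 and Gm38523. The pseudogene and transfer RNA hosts were named after their values were seen.

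The largest intervals were not the strongest. The widest H3.3K27M-only intragenic peak covered 1857 bp of Hes7, a cyclic repressor of somite segmentation, with 28 reads and a fold of 4.53. Bicral, a subunit of a chromatin remodelling complex, followed with 1466 bp and 6.29 fold, and Arrdc3 with 1145 bp and 3.63 fold, its summit 152 bp before an internal start. Farthest from any gene end were peaks in the long genes Ptprd, Lsamp and Tenm2, at 961757, 632724 and 546994 bp, with 11, 12 and 17 reads and folds of 5.17, 6.03 and 4.03.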

How the data were processed

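The submitters' processing notes name Trim Galore, MACS2 and mm10, without versions. How reads were aligned, whether duplicates were removed and how MACS2 was set are not given in the sources used here. Per the deposited peak names, a list came from 1 ChIP against input. The deposited fold enrichment is a ratio over local background, and −log10 p and −log10 q are the authors' caller values. The deposited score column was not used. Peaks were classed as in the report with overlaps of 1 bp or more.

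Reads at a summit were solved for, after the data were seen, as the whole number for which (reads + 1)/(expected + 1) gives the fold and the Poisson tail the −log10 p, within a relative tolerance of 0.0001. This gave 8241 of 8272 H3.3K27M and 6895 of 6920 H3.3WT peaks, with 5 and 1 matching more than 1 number. The solving step was tested on peaks simulated with this formula, which does not test whether the caller used it. Lists thresholded at a q of 0.05 are short of weak sites, and the depth of the libraries is unknown here.

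Gene spans and start windows were from RefSeq, GRCm38.p6. No genome was used, so planned 200-base summit windows were replaced by start windows, chosen after the files were seen. All 875 listed symbols were found. Shares carry 95% Wilson intervals, for counting error only, and no test was run. Members, lists and rules were chosen with earlier results of these data known. Named peaks were the 15 highest by −log10 q, the 10 highest by fold, hosts with most peaks, up to 3 per gene list, the 3 widest, extremes of distance and a fixed set of MTG partner genes. Further hosts on these lists were picked with their values known, and some listed hosts are not reported here. Alternatives changed strength, list length, overlap and distance from gene ends. Python 3.11.15, numpy 2.4.6, pandas 2.3.3, scipy 1.17.1 and matplotlib 3.10.9 were used.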

Additional observations from a re-analysis of the deposited data

How the results depend on the processing

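The number of peaks depended on strength. A −log10 q of at least 5 left 379 peaks in 368 genes with a median fold of 5.60, a fold of at least 5 left 303 in 300 genes with 5.82, and lists cut to equal length left 480 in 460 genes with 5.27. Those changes follow from fewer, stronger peaks. Other overlap and distance rules gave 550 to 904 peaks. Peaks with an H3.3WT summit within 5 kb fell to 7.57% without H3.3WT peaks within 1 kb and to 7.82% at 3 kb from gene ends, where hosts with an H3.3WT peak were 39.8%, listed hosts 62 and peaks near a start 16.6%. With the ends of all annotated genes, 4.35% lay in non-coding spans, which that rule removes by its construction. The share near a start was 23.6% at a −log10 q of at least 5, and 12.1% within 100 bp and 25.7% within 500 bp, both chosen after seeing the data. Over all alternatives run, 18 values moved and 50 stayed near the reported ones, meaning within 1.5 times for a count and within the reported value's 95% interval for a share or median. Windows of 50 and 250 bp around summits were not run. No paired analysis was possible because each genotype had 1 library. Peaks of few reads limit all shares.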

Other observations

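By chromosome, 36.1% of 36 H3.3K27M peaks inside genes on chromosome X overlapped no H3.3WT peak, 38.3% of 115 on chromosome 7, 60.9% of 87 on chromosome 10 and 65.1% of 43 on chromosome 18, against 48.3% of all such peaks. These were the lowest and highest shares over the chromosomes, picked after the values were seen. They are given without intervals, and no difference between chromosomes was tested. Genes of metabolism that held a peak included D2hgdh, which oxidises 2-hydroxyglutarate, with 23 reads and 5.87 fold 138 bp after an internal start, Bcat2, a branched-chain aminotransferase, with 20 reads and 5.94 fold, and Mthfd2, a mitochondrial folate enzyme, with 21 reads and 4.199 fold 186 bp after an internal start. Among immediate early and stress genes, Zfp36l1, which destabilises mRNA, had 20 reads and 4.70 fold, Klf10 17 reads and 5.09 fold, and Fosb 18 reads and 4.65 fold. Mdm2, the ubiquitin ligase for p53, had 19 reads and 4.898 fold, 1439 bp from the gene's end.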
